A study of Ciona robusta with 15 samples.

Results

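The oral siphons of the sea squirt Ciona robusta sampled 3 days post amputation were set against siphons sampled 0 days post amputation, which were taken at once. The comparison rests on 6 of the 15 libraries of the series, 3 for day 3 and 3 for day 0, chosen by the stage that the labels give. All animals were wild-type siblings of about 6 months. They were anesthetized in MS222, amputated and then housed in seawater kept at 15 °C. Each library was made from the polyA RNA of 5 pooled siphon samples, so a library gives the average of its pool, and differences from animal to animal are not seen. Nothing in the labels tells whether pools shared animals or housing batches. The p-values thus reflect pool-to-pool spread only, which may in part be technical.

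The oral siphon is the inflow opening of the tunicate body, a muscular tube lined by epidermis, with pigmented sensory organs along its rim. Ciona rebuilds it after amputation: the wound closes, cells gather and divide at the cut, and muscle, nerve and rim organs form again. Some of the cells that take part derive from progenitors in the branchial sac, the pharyngeal basket below the siphon. In RNA of a whole tissue, fewer cells of a type and less RNA per cell cannot be told apart. The deposited counts are given per Ensembl transcript identifier. Not 1 of the 17745 identifiers (0 matches) occurred in a RefSeq table of 21486 genes, so transcripts are described by identifier, level and abundance, without names or positions, and the tissue could not be checked against marker genes.

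The day 3 libraries held 7039611, 12163241 and 14346807 counts for replicates 1, 2 and 3, and the day 0 libraries 18531049, 21646665 and 18713760. Day 3 replicate 1 was the shallowest library of the series. Levels are given as CPM, a transcript's counts relative to its library's total, with the totals adjusted by TMM (edgeR's trimmed-mean scaling). A level of 10 CPM stood for 80.7 counts in day 3 replicate 1 and for 135 to 209 counts in the other 5 libraries. Counts are reads and not molecules. Of the 17745 transcripts, 15328 passed the filter on low counts and were tested.

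The day 3 pools did not form a single profile. Across the 8593 transcripts with a mean of at least 10 CPM over the 6 libraries, day 3 replicates 1 and 2 were at least 2-fold apart in 158, or 1.84%. Replicate 3 was that far from replicate 1 in 1211 transcripts (14.1%) and from replicate 2 in 824 (9.59%). The same library was 2-fold apart from day 0 replicate 1 in 184 transcripts (2.14%), from day 0 replicate 2 in 225 (2.62%) and from day 0 replicate 3 in 618 (7.19%). The library labelled day 3 replicate 3 thus lay nearer to all 3 day 0 pools than to either of the other day 3 pools. From day 1 replicates 1, 2 and 3 it was 2-fold apart in 7.65%, 5.73% and 20.4%. From day 8 replicates 1, 2 and 3 it was 2-fold apart in 15.5%, 16.4% and 5.71%. This library was thus nearer to day 1 replicate 2 and day 8 replicate 3 than to day 0 replicate 3. Whether its label is right could not be checked from the files, and the labels were kept as given. Each day 3 mean, call count and count of overlap below includes this library unless it is said to be left out.

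Day 3 replicates 1 and 2 were 2-fold apart from the day 0 libraries in 10.2% to 16.8% of these transcripts. From day 8 replicates 1, 2 and 3, day 3 replicate 1 was 2-fold apart in 3.18%, 4.17% and 11.7%, and day 3 replicate 2 in 3.51%, 3.41% and 6.98%. From day 1 replicates 1, 2 and 3 these values were 7.48%, 6.49% and 7.86% for day 3 replicate 1 and 5.20%, 3.92% and 7.59% for day 3 replicate 2. Both were thus closer to each pool of days 1 and 8 than to any of day 0, and the closeness was not particular to day 8. The day 0 libraries were also unequal among themselves. Replicates 1 and 2 were 2-fold apart in 1.49% of transcripts, and replicate 3 was that far from them in 7.29% and 9.44%. Spearman correlations over the tested transcripts, which are not independent replicates, were 0.974 between day 3 replicates 1 and 2, 0.937 and 0.957 between these and replicate 3, and 0.977 between day 3 replicate 3 and day 0 replicate 1.

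**Figure D1:**
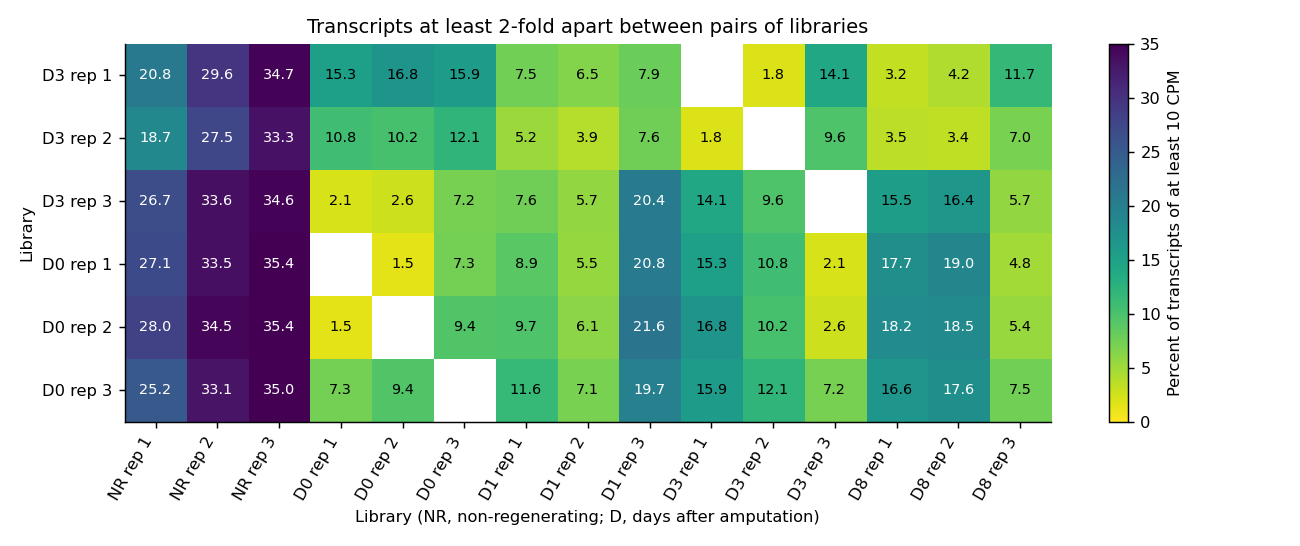
Percent of the 8593 transcripts of at least 10 CPM that were at least 2-fold apart between each day 3 or day 0 library (rows) and each library of the series (columns); blank cells are a library with itself. Day 3 replicate 3 stood at 2.14% and 2.62% from day 0 replicates 1 and 2, against 14.1% and 9.59% from day 3 replicates 1 and 2.

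Which pool stood apart depended on abundance. Among transcripts of 10 to 100 CPM replicate 3 was the pool farthest from the other 2 in 49.4%, among those of 100 to 1000 CPM in 58.9% and among those of 1000 CPM or more in 48.1%. Replicate 1 was the farthest in 55.4% of transcripts under 1 CPM, and in 14.7% of those of 1000 CPM or more. Of the transcripts of at least 10 CPM, 653 had replicate 3 at least 2-fold beyond both other day 3 pools on the same side, compared with 101 for replicate 1 and 18 for replicate 2. As a check for a library deposited more than once, the chi-square per degree of freedom between pools was 23.6, 107.9 and 115 for the 3 pairs of day 3 and 41.2, 152 and 176 for the 3 pairs of day 0. It sets all disagreement between 2 pools against read counting noise alone, which separate pools exceed in any case. Its value also grows with depth, which was lower at day 3, so the day 3 and day 0 pairs are not compared by it.

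The 653 transcripts that set replicate 3 apart were chosen on the day 3 libraries, apart from the minimum mean over the 6 libraries. Of these, 458 were higher and 195 lower in replicate 3. The 458 had a median level of 29.1, 32.4 and 97.1 CPM in day 3 replicates 1, 2 and 3, against 87.7, 81.1 and 57.01 CPM in day 0 replicates 1, 2 and 3. Their median was 25.6, 25.8 and 48.1 CPM in the 3 libraries of day 8. It was 54.2, 50.03 and 26.5 CPM in day 1 replicates 1, 2 and 3. In the non-regenerating replicates 1, 2 and 3 it was 29.2, 27.8 and 39.1 CPM. For this set, day 3 replicates 1 and 2 were near the level of day 8 replicates 1 and 2, which was not particular to day 8. Day 1 replicate 3 and non-regenerating replicates 1 and 2 were near it too. Day 3 replicate 3 was near the level of day 0 replicates 1 and 2.

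The 195 transcripts that were lower in replicate 3 had the mirror pattern. Their median was 46.5, 41.4 and 13.8 CPM in day 3 replicates 1, 2 and 3, against 16.3, 14.6 and 17.2 CPM in the day 0 libraries. At day 8 it was 41.8, 40.6 and 23.3 CPM. It was 30.9, 24.04 and 46.5 CPM at day 1, and 33.6, 37.01 and 36.04 CPM in the non-regenerating replicates 1, 2 and 3. Each day 1 and non-regenerating pool was thus above day 0 too, which was not particular to days 3 and 8. Day 3 replicate 3 lay within the range of the 3 day 0 libraries for 48.3% of the 458 and 50.3% of the 195. Both were below its share of 57.2% over all 8593 transcripts of 10 CPM or more. Replicates 1 and 2 did so for 14.2% and 18.6% of the 458 and for 7.69% and 10.8% of the 195, beside 32.8% and 39.8% over the 8593. The shares of replicate 3 were thus no higher among these members than over all such transcripts, and the members were chosen for replicates 1 and 2 lying far from replicate 3.

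**Figure D2:**
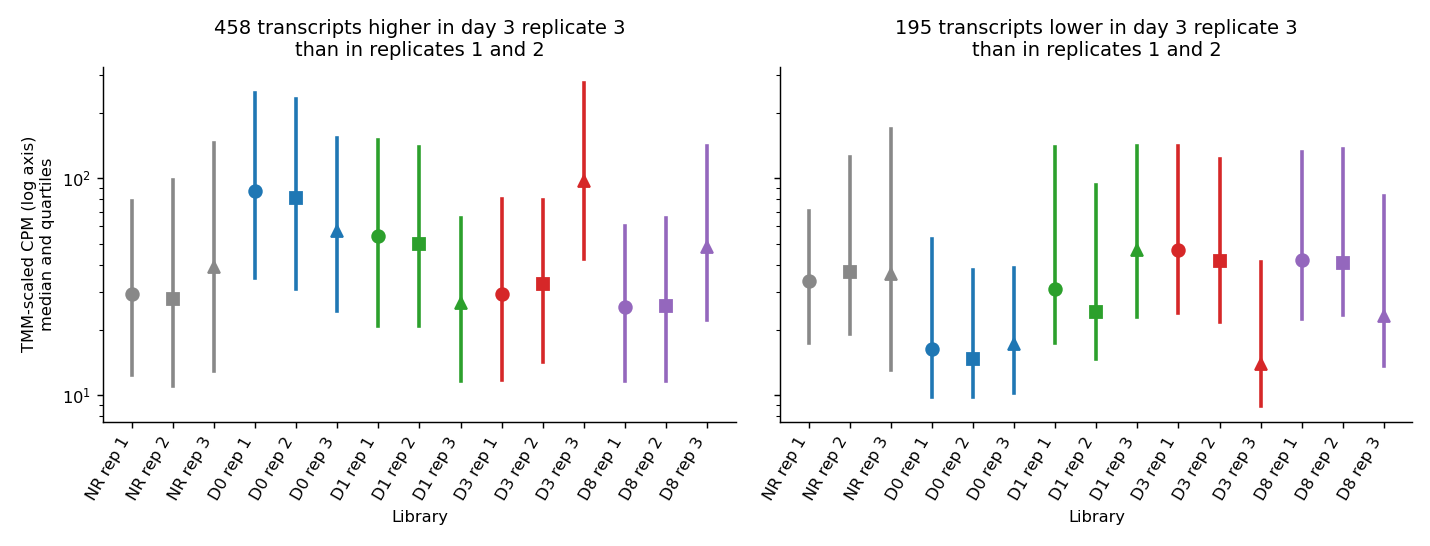
Median (symbol) and quartiles (line) of TMM-scaled CPM on a log axis, by library, for the 458 transcripts higher and the 195 lower by at least 2-fold in day 3 replicate 3 than in both other day 3 pools. In the left panel day 3 replicate 3 stands at 97.1 CPM beside 87.7 CPM in day 0 replicate 1, with day 3 replicates 1 and 2 at 29.1 and 32.4 CPM.

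The distance of each pool from day 0 was also counted against the range of the 3 day 0 libraries. This count covered the 8593 transcripts of 10 CPM or more. At least 2-fold above that range were 206, 116 and 37 of them in day 3 replicates 1, 2 and 3. At least 2-fold below it were 379, 191 and 7. In replicates 1 and 2 more transcripts lay 2-fold below the range than above it, and in replicate 3 fewer did. Of the 379 below in replicate 1, 282 were of 10 to 100 CPM, 90 of 100 to 1000 CPM and 7 of 1000 CPM or more. The 7 below in replicate 3 were all of 10 to 100 CPM. Of the 8593 transcripts counted, 7151 were of 10 to 100 CPM, 1313 of 100 to 1000 CPM and 129 of 1000 CPM or more. With most transcripts in that class, the place of these 7 is not particular to replicate 3. The pools of the other stages were also unequal, with 149, 43 and 762 transcripts 2-fold below in day 1 replicates 1, 2 and 3 and 510, 553 and 53 in day 8 replicates 1, 2 and 3.

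**Figure D3:**
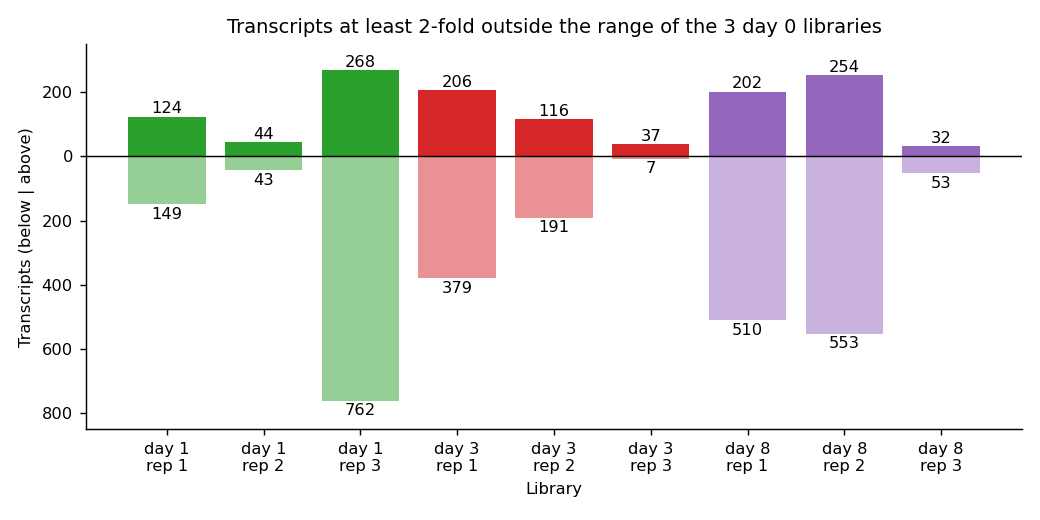
Number of transcripts of at least 10 CPM that lay at least 2-fold above (upward bars) or below (downward bars) the range of the 3 day 0 libraries in each library of days 1, 3 and 8. Day 3 replicate 3 had 37 above and 7 below, and day 3 replicate 1 had 206 above and 379 below.

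Exactly 2 of the 3 day 3 pools were above all day 0 libraries, by any margin, in 3142 of the tested transcripts. Replicate 3 was the pool that was not in 2206 of these (70.2%), replicate 1 in 454 and replicate 2 in 482. Exactly 2 were below in 2818 transcripts, and replicate 3 was the pool that was not in 2037 (72.3%).

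No transcript passed the test of day 3 against day 0 over these pools. In edgeR's quasi-likelihood test, fitted to all 15 libraries with Benjamini-Hochberg adjustment, 0 of 15328 transcripts (0%) had an adjusted p under 0.05, and the lowest adjusted p was 0.543. An unadjusted p under 0.05 was reached by 1043 transcripts (6.8%), 762 of them higher (4.97%) and 281 lower (1.83%) at day 3. The split was nearly even in a fit of the 6 libraries alone, where 1463 transcripts (10% of those tested) were at an unadjusted p under 0.05, with 751 higher and 712 lower. DESeq2 made 30 calls (0.196%). With limma voom there were 0 calls and 940 transcripts (6.13%) at an unadjusted p under 0.05. Weighting the libraries in voom by their quality gave 462 calls (3.01%) and 4007 transcripts (26.1%) at an unadjusted p under 0.05.

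The fitted shifts were small for most transcripts. The median log2 fold change was 0.02 and the median of its absolute value 0.29, and 5% of the transcripts lay below -0.79 and 5% above 0.93. The fitted value was at least 2-fold higher for 639 transcripts (4.17%) and at least 2-fold lower for 393 (2.56%), without regard to any test. At 4-fold these numbers were 89 and 29. Of the 89, 26 averaged under 1 CPM over the 6 libraries and 42 averaged 1 to 10 CPM. Of the 29, 21 and 8 did, so all of these averaged under 10 CPM. The 2-fold shares were 12.8% higher and 11.03% lower under 1 CPM, and 2.04% and 0.727% at 10 to 100 CPM. Large fitted values were thus most frequent among the scarcest transcripts. Scaling by library totals alone put the median log2 fold change of all tested transcripts at 0.12, and size factors as in DESeq2 put it at -0.02.

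All 3 day 3 libraries lay above all day 0 libraries in 1171 transcripts (7.64% of those tested) and below them in 1008 (6.58%), together 14.2%. The larger of these sides depended on the scaling: with size factors as in DESeq2 there were 1004 above and 1192 below (14.3% together). Without the filter on low counts there were 1132 above and 1206 below (13.2%). Without day 3 replicate 3 there were 3377 above and 3045 below (41.9% together), while leaving out replicate 1 or 2 gave 19.4% and 20.3%. Fewer libraries overlap less by construction, and this holds for each library left out.

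Few transcripts were far from day 0 in all 3 day 3 pools. Among transcripts of at least 10 CPM, 14 (0.163%) had every day 3 library at least 2-fold above every day 0 library, and 0 (0%) had every day 3 library 2-fold below. With size factors as in DESeq2 these counts were 12 and 1, and with library totals alone 15 and 0. The 14 had a median of 125, 76.6 and 90.5 CPM in day 3 replicates 1, 2 and 3, against 15.6, 7.26 and 10.4 CPM in the day 0 libraries. Their log2 fold changes ran from 1.35 to 3.78, with adjusted p of 0.543 to 0.729 in edgeR. In day 3 replicates 1 and 2 without replicate 3, 93 transcripts were 2-fold above every day 0 library and 137 were 2-fold below. Leaving out replicate 1 instead gave 17 and 2, and leaving out replicate 2 gave 18 and 0. Fewer libraries raise such counts by construction.

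Among transcripts that averaged 5 CPM or more in their higher group, ENSCINT00000004456 and ENSCINT00000024202 had the lowest p of those higher at day 3. ENSCINT00000004456 held 65.04, 67.5 and 89.9 CPM in day 3 replicates 1, 2 and 3, against 26.3, 13.6 and 25.1 CPM at day 0. Its log2 fold change was 1.78 ± 0.303 (SE; adjusted p = 0.543 in edgeR). Replicate 3 was the highest of the day 3 pools here, and the groups did not overlap.

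ENSCINT00000024202 held 57.2, 66.3 and 44.7 CPM in the day 3 pools, against 22.8, 27.7 and 20.1 CPM at day 0. The log2 fold change was 1.25 ± 0.227 (SE; adjusted p = 0.543 in edgeR). All day 3 pools were above all day 0 pools, with replicate 3 the lowest of the day 3 pools.

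On the lower side, ENSCINT00000002984 held 50.8, 59.8 and 90.5 CPM in the day 3 pools, against 157, 136 and 127 CPM at day 0. Its log2 fold change was -1.06 ± 0.225 (SE; adjusted p = 0.630 in edgeR). ENSCINT00000002977 held 45.3, 55.2 and 80.6 CPM at day 3, against 142, 118 and 112 CPM at day 0. Its log2 fold change was -1.04 ± 0.236 (SE; adjusted p = 0.630 in edgeR). In both, replicate 3 was the day 3 pool nearest to day 0, and the groups did not overlap. The ratio of their counts stayed between 1.08 and 1.15 over the 6 libraries, so these identifiers may carry a single signal. Whether they share reads was not tested.

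DESeq2's 30 calls included 4 that were lower at day 3. These were ENSCINT00000002984, ENSCINT00000002977, ENSCINT00000026775 and ENSCINT00000033485, of which the last pair was singled out after its values were seen. ENSCINT00000026775 held 16.97, 16.2 and 14.6 CPM in day 3 replicates 1, 2 and 3, against 33.3, 39.2 and 36.1 CPM at day 0, with a log2 fold change of -1.23 ± 0.297 (SE; adjusted p = 0.0266 in DESeq2). Its day 3 pools lay close together, replicate 3 included. Its adjusted p was 0.630 in edgeR, which like DESeq2 was fitted to all 15 libraries. ENSCINT00000033485 was scarce, at 0.991, 0.349 and 1.41 CPM at day 3, against 2.01, 3.79 and 3.89 CPM at day 0. The edgeR fit of the 6 libraries alone called 1 transcript (0.00684%), ENSCINT00000033041, which was also singled out after its values were seen. It held 103, 62.3 and 112 CPM at day 3, against 12.4, 6.61 and 11.5 CPM at day 0, with a log2 fold change of 3.15 ± 0.317 (SE; adjusted p = 0.0387 in edgeR). With all 15 libraries its adjusted p was 0.729 in edgeR.

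Transcripts were sorted into 5 abundance classes by their mean CPM over the 6 libraries, and the class medians lay within 0.1 of 0 on the log2 scale. Of the tested transcripts, 1315 were under 1 CPM, 5420 at 1 to 10, 7151 at 10 to 100, 1313 at 100 to 1000 and 129 at 1000 CPM or more. The median log2 fold changes of these classes, in that order, were 0.01, 0.09, 0.02, -0.09 and -0.09. With library totals alone the classes of 100 to 1000 CPM and of 1000 CPM or more had medians of 0.0036 and 0.00017, and with size factors as in DESeq2 the class of 10 to 100 CPM had a median of -0.02. Without day 3 replicate 3 the medians of the 2 most abundant classes were both -0.17, and without day 3 replicate 2 that of 1000 CPM or more was 0.02. The median of the class under 1 CPM was -0.24 without day 3 replicate 3, -0.06 without replicate 2 and 0.18 without replicate 1. The class of 1 to 10 CPM had a positive median in every alternative run. The class of 100 to 1000 CPM kept a negative median whichever pool was left out, and lost it with library totals alone.

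The pools differed in these shifts. In the class of 100 to 1000 CPM the median log2 difference from the day 0 mean was -0.16, -0.17 and 0.10 in day 3 replicates 1, 2 and 3, against 0.04, 0.09 and -0.13 in day 0 replicates 1, 2 and 3. In the class of 1000 CPM or more it was -0.07, -0.34 and 0.15 in the day 3 pools, against 0.07, 0.04 and -0.04 in the day 0 pools. Day 3 replicates 1 and 2 were low and replicate 3 was high in both classes. In the class of 1 to 10 CPM the medians were 0.11, 0.15 and 0.01 at day 3, against 0.01, -0.04 and 0.07 at day 0.

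The share of transcripts at an unadjusted p under 0.05 was 4.56% under 1 CPM, 6.46% at 1 to 10, 7.64% at 10 to 100, 6.47% at 100 to 1000 and 1.55% at 1000 CPM or more, beside 6.8% of all tested transcripts. At 1 to 10 CPM 286 of these were higher and 64 lower, at 10 to 100 CPM 384 and 162, and at 100 to 1000 CPM 54 and 31. Groups that did not overlap were found in 8.41% (higher) and 5.98% (lower) of the transcripts of 1 to 10 CPM. In the class of 100 to 1000 CPM these shares were 6.02% and 5.86%. The median SD of log2 CPM between pools was larger at day 3 than at day 0 in every class. It was 1.19 and 0.70 under 1 CPM, 0.27 and 0.24 for 10 to 100 CPM and 0.31 and 0.26 for 1000 CPM or more. Lower depth also raises this SD, most of all at low counts, and the day 3 libraries were the shallower. The part of depth in the difference was not tested.

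**Figure D4:**
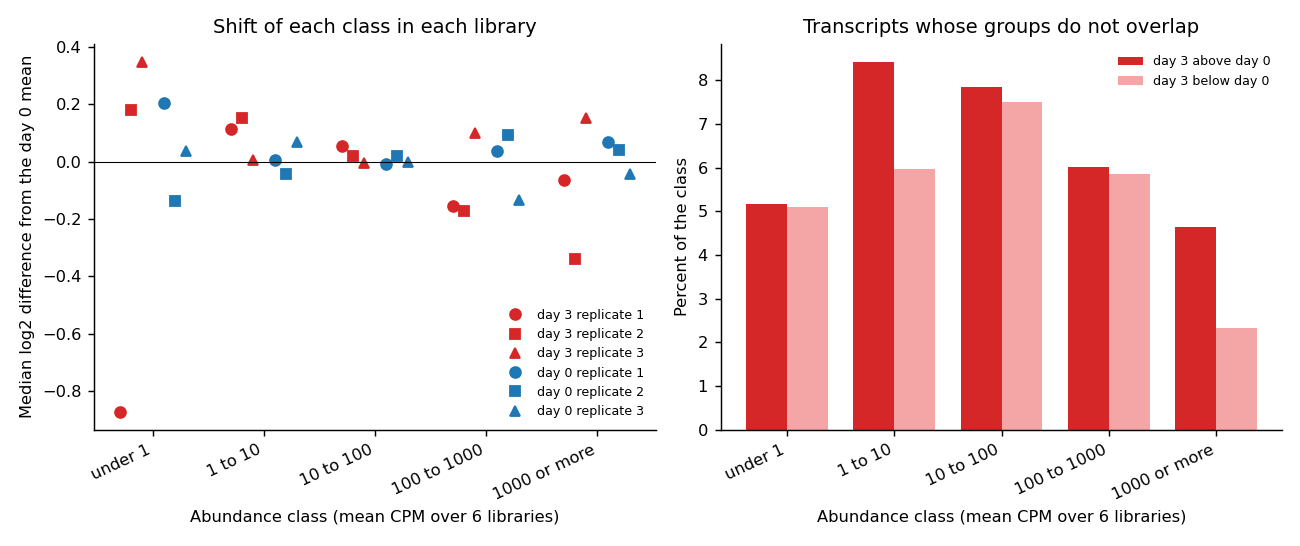
Left, median log2 difference of each day 3 (red) and day 0 (blue) library from the mean of the day 0 libraries, by abundance class; each symbol is a library. Right, percent of each class in which all day 3 libraries lay above (dark) or below (light) all day 0 libraries, from 8.41% above at 1 to 10 CPM to 2.33% below at 1000 CPM or more.

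The class of 1000 CPM or more took 35.9%, 36.03% and 40.5% of all counts in day 3 replicates 1, 2 and 3, against 41.3%, 40.3% and 37.6% in the day 0 libraries. The groups overlapped, with day 3 at 37.5 ± 2.64% and day 0 at 39.7 ± 1.94% (SD, n = 3 each; two-sided exact permutation test, p = 0.3, adjusted p = 0.5 over 5 classes). With 3 libraries against 3 this test cannot give a p below 0.1. The class of 10 to 100 CPM took 26.9%, 26.6% and 22.4% at day 3, against 22.5%, 23.1% and 25.5% at day 0. In both classes, day 3 replicate 3 stood among day 0 replicates 1 and 2 or next to them, and day 0 replicate 3 stood on the side of day 3 replicates 1 and 2. The number of transcripts that together held 50% of the counts was 325, 331 and 245 in the day 3 libraries and 237, 253 and 287 in the day 0 libraries.

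Day 3 replicate 1 stood apart at the low end of abundance. It held at least 1 count for 15296 transcripts. At its depth of 7039611 counts, 16488 and 16524 transcripts would be counted on average in day 3 replicates 2 and 3, and 16556.5, 16199 and 16419 in day 0 replicates 1, 2 and 3, by the hypergeometric formula. Its number was thus the lowest at equal depth too. In the class under 1 CPM, its median log2 difference from the day 0 mean was -0.87, while those of day 3 replicates 2 and 3 were 0.18 and 0.35. These differences were not taken at equal depth. At 10 CPM day 3 replicate 1 held 80.7 counts, so transcripts of this class had few counts or none in it. The class took 0.0638% of its counts, against 0.0796%, 0.0631% and 0.0844% in day 0 replicates 1, 2 and 3. By this share it lay within the day 0 range. No transcript had at least 5 counts in each library of a group and no count in the other group. Of the 17745 transcripts, 1 had a count in all 3 day 3 libraries and none at day 0. The reverse held for 55. These transcripts were near the limit of detection, since the highest count summed over a group was 31 for day 3 and 32 for day 0 among transcripts counted in a single group. The day 3 libraries held 33549659 counts together and the day 0 libraries 58891474. Both parts of this rule favour the deeper group, so the counts of 1 and 55 are not on equal terms.

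Among the 129 transcripts of 1000 CPM or more, log2 fold changes ran from -1.66 to 1.66, and 9 had groups without overlap, 6 higher (4.65%) and 3 lower (2.33%), smaller shares than the 7.64% and 6.58% of all tested transcripts. ENSCINT00000013539 had the largest positive value, with 2632, 3095 and 1168 CPM in day 3 replicates 1, 2 and 3, against 1012, 541 and 632 CPM at day 0. Its log2 fold change was 1.66 ± 0.421 (SE; adjusted p = 0.630 in edgeR). Day 3 replicates 1 and 2 were far above day 0, and replicate 3 stood just above the highest day 0 pool.

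ENSCINT00000022590 held 1813, 1738 and 988 CPM at day 3, against 485, 863 and 854 CPM at day 0, with a log2 fold change of 1.04 ± 0.746 (SE; adjusted p = 0.794 in edgeR). ENSCINT00000015767 held 2726, 2741 and 4482 CPM at day 3, against 4662, 4824.5 and 4762 CPM at day 0. Its log2 fold change was -0.52 ± 0.736 (SE; adjusted p = 0.878 in edgeR). ENSCINT00000034064 held 783, 800.5 and 1148 CPM at day 3, against 1149.8, 1158 and 1166 CPM at day 0, with a log2 fold change of -0.35 ± 0.224 (SE; adjusted p = 0.784 in edgeR). In these 3, replicates 1 and 2 agreed closely and replicate 3 was the day 3 pool nearest to day 0. In the last pair, replicate 3 lay only a little below the lowest day 0 pool.

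The transcripts of at least 100 CPM over the day 3 libraries that differed most between replicate 3 and the nearer of the other day 3 pools are given as a description. ENSCINT00000036340 held 2.23, 2.73 and 1626 CPM in day 3 replicates 1, 2 and 3, against 3206, 1753 and 193 CPM at day 0. ENSCINT00000011757 held 6.07, 4.54 and 2717 CPM at day 3, against 3655, 2567 and 227 CPM at day 0. In both, day 3 replicate 3 stood with day 0 replicates 1 and 2, and day 0 replicate 3 was the lowest of its group. The libraries of days 1 and 8 held between 1.95 and 68.9 CPM of ENSCINT00000036340.

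ENSCINT00000009133 was the most strongly lower in replicate 3, with 561, 713 and 25.8 CPM in day 3 replicates 1, 2 and 3, against 54.3, 36.0 and 43.2 CPM at day 0. Replicate 3 was below the 3 day 0 pools here, and replicates 1 and 2 were above them. ENSCINT00000009128 held 2120, 3248 and 134 CPM at day 3, against 3911, 1957 and 33.4 CPM at day 0. Its day 0 pools spanned a wider range than its day 3 pools, and the groups overlapped throughout.

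**Figure D5:**
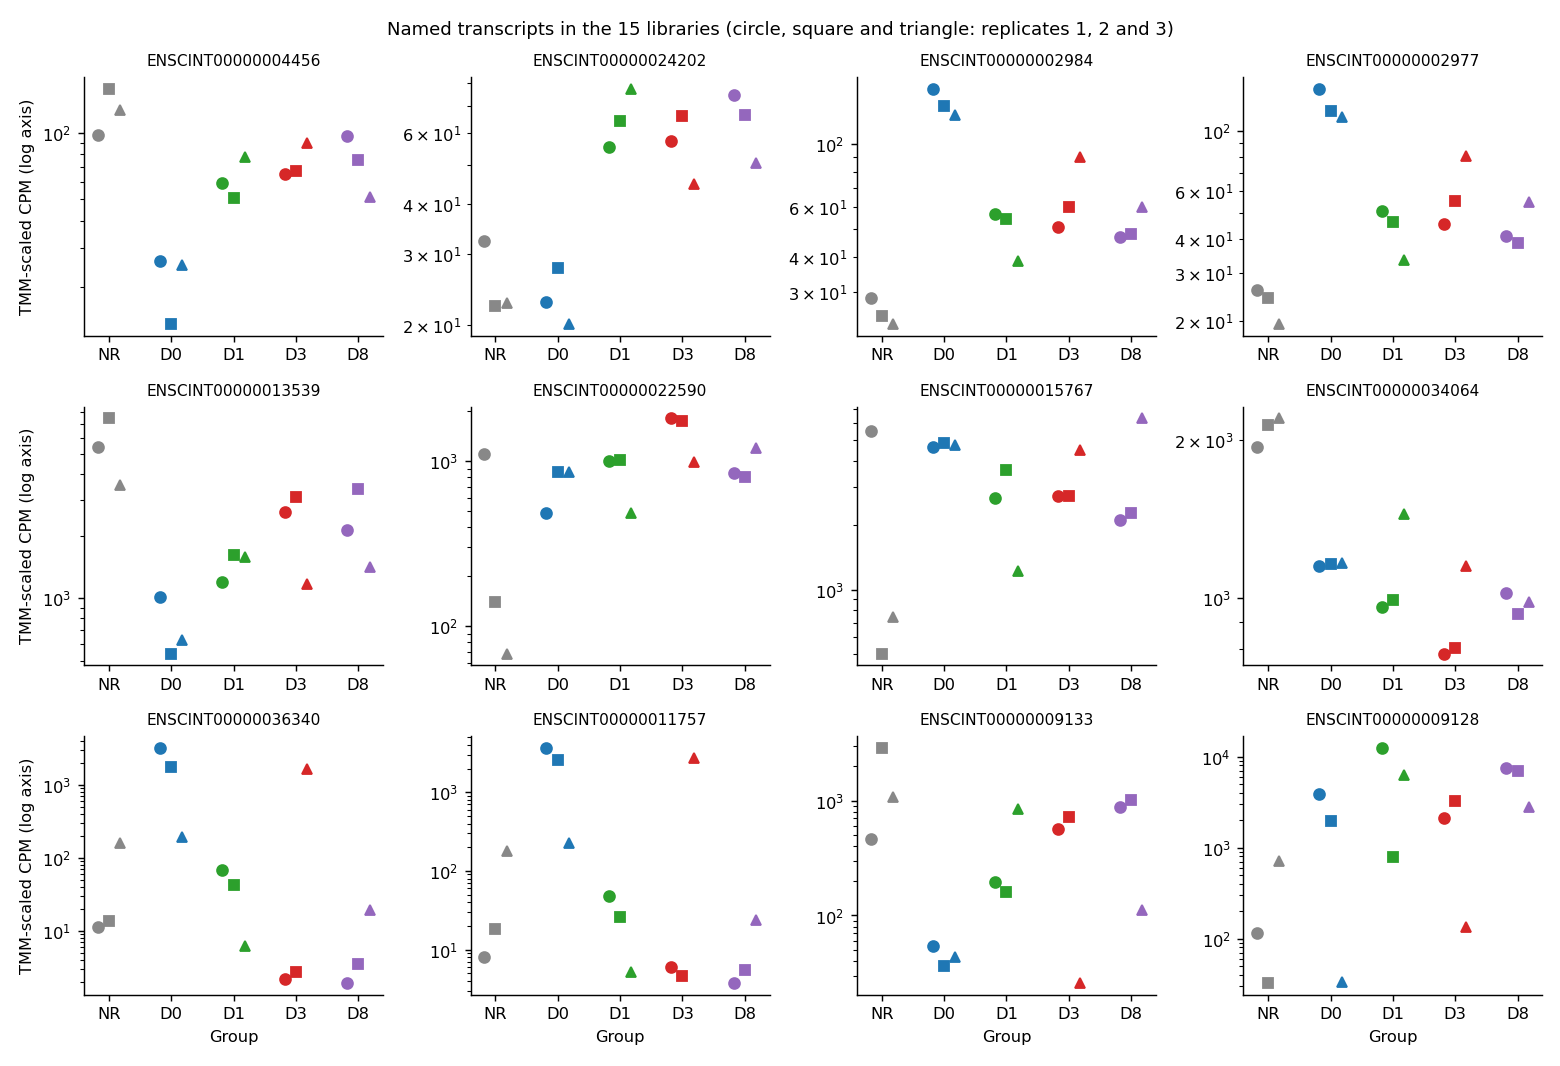
TMM-scaled CPM on a log axis of the 12 transcripts named by rule in the 15 libraries, with symbols for the replicate and colours for the group (NR, non-regenerating; D0, D1, D3 and D8, days after amputation). In the bottom row day 3 replicate 3 (red triangle) stands apart from day 3 replicates 1 and 2, as for ENSCINT00000036340 with 1626 against 2.23 and 2.73 CPM.

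Leaving out day 3 replicate 3 alone gave 0 calls in edgeR but 2228 transcripts (14.3%) at an unadjusted p under 0.05, with 1283 higher and 945 lower and a lowest adjusted p of 0.0622. Leaving out replicate 1 gave 455 (2.91%) and leaving out replicate 2 gave 651 (4.17%), with 0 calls each in edgeR. Without the libraries numbered 3 in all groups edgeR called 837 transcripts (5.42%), with 378 higher and 459 lower at day 3, and 3478 (22.5%) were at an unadjusted p under 0.05. Without replicate 3 of days 1, 3 and 8 it called 259 (1.67%), with 136 higher and 123 lower, and 2541 (16.3%) were at an unadjusted p under 0.05. Of the 259, 245 were among the 837, which is 94.6% of the 259 and 29.3% of the 837. Of DESeq2's 30 calls, 24 (80%) were among the 837.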

How the data were processed

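PolyA RNA of 15 libraries, 3 for each of 5 groups, was read on an Ion Proton instrument. The deposited values are raw counts of reads for each Ensembl transcript identifier, not normalized by the authors. TopHat, Bowtie and HTSeq were used, per the submitters' processing notes; settings, genome build and strandedness were not given in the sources used here. Reads of transcripts that overlap, or lie antisense to each other, may therefore be mixed. Samples were grouped by their titles. Of 17745 identifiers, 69 had no count; edgeR's filter with a minimum count of 10 kept 15328 and dropped 2417. Counts were scaled with TMM, and edgeR's quasi-likelihood model, with 1 mean for each group, took in all libraries (edgeR 4.0.16, R 4.3.3; robust glmQLFit, two-sided glmQLFTest), with Benjamini-Hochberg adjustment over the tested transcripts and a threshold of 0.05. The standard error from edgeR was the absolute log2 fold change divided by the root of its F statistic. Log2 CPM used a prior count of 0.5. DESeq2 1.42.0, which left 48 adjusted p-values as NA, and limma 3.58.1 served as alternatives, beside other scalings, filters and sets of libraries.

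The transcripts named were, by rule, the 2 of lowest p in each direction that averaged 5 CPM or more in their higher group; the 2 in each direction with the largest log2 fold change among non-overlapping transcripts of 1000 CPM or more; and the 2 in each direction in which day 3 replicate 3 was farthest from the nearer day 3 pool, with at least 100 CPM on average. Members, classes and rules were chosen with earlier results of these data known. Near-identical counts over the libraries, differing by no more than 1% of a total of at least 100 counts, were found for 214 transcripts in 105 sets, and no transcript named by rule was in such a set. Nothing in the labels pairs the samples by replicate number, and the fit as reported did not pair them. The fit was tested on simulated data, which held planted changes but no pool set apart from its group. That test thus does not bear on pools as unequal as these.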

Additional observations from a re-analysis of the deposited data

How the results depend on the processing

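Of the 19 alternatives, 14 left the count of calls at 0. The others called 30 (DESeq2), 462 (limma voom with library weights), 1 (the 6 libraries alone), 837 (without all libraries numbered 3) and 259 (without replicate 3 of days 1, 3 and 8). The 1043 transcripts at an unadjusted p under 0.05 became 4007 with library weights, 3478 without all libraries numbered 3 and 2541 without replicate 3 of days 1, 3 and 8, and ran from 455 to 2228 when a single library was left out. The share of these that were higher ran from 50.9% to 82.9%, where the fit as reported gave 73.1%. The cause of these moves was not tested.

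Leaving out a library gave 2971 to 6422 transcripts without overlap, where 2179 were found with all. Transcripts 2-fold above every day 0 library ran from 17 to 93 and those 2-fold below from 0 to 137, with 1 below under size factors as in DESeq2; these counts were added after the data were seen. With all tested transcripts, down to the scarcest, 12.5% were 2-fold apart between day 3 replicates 1 and 2, 24.3% between 1 and 3 and 16.04% between 2 and 3. At 100 CPM or more the value for 2 and 3 was 18.1%. Of 100 class medians under alternatives, 7 moved beyond the spread between the day 3 pools. That spread was the SD of the class medians of the 3 day 3 pools. It was wide in some classes, at 0.66 under 1 CPM and 0.25 at 1000 CPM or more. A change of sign within it counted as not moved, so the number does not show that the medians were stable.

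The same replicate numbers recur in each group. The correlations of deviations of same-numbered day 3 and day 0 libraries were -0.06, -0.0029 and -0.20. Over all groups such correlations ran from -0.79 to 0.57, and 8 of 30 pairs exceeded 0.1. The replicate block gave 0 calls in edgeR, with 934 transcripts (6.09%) at an unadjusted p under 0.05. Of the 8 transcripts named by the test or by abundance, 0 changed direction in 19 alternatives, and 5 passed the threshold in 4 of them each. These 8 were chosen from the same data, and their day 3 and day 0 pools did not overlap. Leaving out libraries could thus hardly reverse them, and the constant direction is no separate support.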

Other observations

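The 14 transcripts in which every day 3 pool was at least 2-fold above every day 0 pool were also looked up in the libraries that this comparison does not use. Their median level was 45.4, 17.6 and 247 CPM in day 1 replicates 1, 2 and 3 and 146, 175 and 50.5 CPM in day 8 replicates 1, 2 and 3. All 14 lay above the day 0 range in day 1 replicates 1 and 3 and in day 8 replicates 1 and 2, 10 did so in day 1 replicate 2 and 11 in day 8 replicate 3. In the non-regenerating libraries the medians were 112, 185 and 126 CPM, and 13, 14 and 14 of the transcripts lay above the day 0 range. The 14 were chosen for low levels in the same 3 day 0 libraries, which favours such counts. Of all 8593 transcripts of 10 CPM or more, 29.0%, 25.9% and 31.9% lay above the day 0 range in day 1 replicates 1, 2 and 3, 30.04%, 31.1% and 25.3% in day 8 replicates 1, 2 and 3, and 33.2%, 36.2% and 38.2% in the non-regenerating replicates 1, 2 and 3.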
